A study of Mus musculus with 6 samples.

Results

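The 10 genes described here, Dusp1, Dusp2, Dusp4, Dusp5, Dusp6, Dusp10, Dusp14, Spry1, Spry2 and Spred2, encode dual-specificity phosphatases (DUSPs) and Sprouty and Spred proteins, the brakes that act on the extracellular signal-regulated kinase (ERK) and its relatives. They were picked by name, with earlier results of these data known, out of 22400 genes with at least 1 count. The gene-level table deposited by the authors lists 9 of them, and Spry2 was taken from the transcript files. RNA was sequenced from naive CD4+ T cells of spleen and lymph nodes that had been cultured for 48 h on antibodies to CD3 and CD28 with IL-4, TGF-β and an antibody to IFN-γ, conditions that direct cells to the IL-9-producing Th9 fate. WT samples came from Cul5 fl/fl littermates without Cre and Cul5 cKO samples from Cul5 fl/fl CD4-Cre mice, with 3 samples of each, on a C57BL/6 background at 8 to 10 weeks of age. Both genotypes thus carry the floxed allele, in which loxP sites flank exons 9 to 11 of Cul5, the scaffold of a ubiquitin ligase. The CD4 promoter drives Cre at a stage of thymic development that CD8 T cells pass through as well, so the gene is deleted in all T cells and before the culture begins, and none of the 6 samples carries Cre without the floxed allele.

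Cul5 itself was at 64.4, 69.3 and 65.0 CPM in WT replicates 1, 2 and 3 and at 10.6, 14.2 and 13.1 CPM in Cul5 cKO replicates 1, 2 and 3, which fits the labels. CPM here are TMM-scaled counts, given relative to the size of the library. The libraries held 23111689 to 23454552 counts, except WT replicate 3 with 3944803, in which 3 counts correspond to 0.759 CPM against 0.128 to 0.133 CPM in the others. The summed level of 5 CD4 T cell markers was 987 to 1036 CPM in WT and 906 to 941 CPM in Cul5 cKO, ranges that did not overlap. The 5 B cell markers, none of them at 0 throughout, summed to 15.1 to 19.2 CPM in WT and 6.47 to 48.0 CPM in Cul5 cKO. The 5 myeloid markers summed to 6.11 to 10.6 and 5.30 to 14.3 CPM, the 2 CD8 markers to 5.76 to 6.53 and 4.30 to 11.6 CPM, and the 3 NK cell markers to 0.427 to 0.506 and 0.131 to 0.304 CPM, with Ncr1 at 0. The part of these markers in the results was not tested. In these bulk samples, fewer cells of a type and less RNA per cell cannot be told apart.

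When an antigen receptor or a growth factor receptor is engaged, RAS activates the kinases RAF, MEK and ERK in turn, and ERK switches on genes for its own inhibitors. DUSPs remove the phosphates from the activated kinase, some in the nucleus and some in the cytoplasm, and differ in whether they prefer ERK or the stress kinases JNK and p38. Sprouty and Spred proteins act further upstream, at the membrane, where they limit the passage of the signal from receptors through RAS to RAF. In T cells the transcripts of several of these genes are induced within hours of T cell receptor stimulation and are often read as a record of recent signalling.

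Promoter sequences were available for 9 of the 10 genes, all but Dusp4, from RefSeq on GRCm38.p6, and the 250 bases before the start of each were searched on both strands for 4 motifs bound by factors downstream of these kinases. Those were AP-1 (TGACTCA or TGAGTCA, present in 4.46% of 32851 promoters of the same length), the cyclic AMP response element CRE (TGACGTCA, 1.55%), an ETS site (CCGGAAG, 6.91%) and the CArG box of serum response factor (1.47%). Dusp1 held 1 CRE that begins 143 bases before the start, Dusp5 held 2 adjacent CArG boxes that begin 82 and 72 bases before it, and the other 7 held none of the 4. A match is a description of the letters only. The RefSeq starts of Dusp1, Dusp5, Dusp10, Dusp14 and Spred2 lie inside the GENCODE models of these genes, so that some of the bases searched there are within the model. Printed 5′ to 3′ on the strand of the gene, with matches in capitals, are the promoter of Dusp10, the gene with the clearest difference between genotypes, that of Dusp1, which also did not overlap between genotypes, and those of Dusp5, Dusp2 and Spry1, which shared a pattern over replicates. They lie at chr1:184034131-184034380 (plus strand), chr17:26508473-26508722 (minus), chr19:53528895-53529144 (plus), chr2:127335909-127336158 (plus) and chr3:37639697-37639946 (plus).
Dusp10: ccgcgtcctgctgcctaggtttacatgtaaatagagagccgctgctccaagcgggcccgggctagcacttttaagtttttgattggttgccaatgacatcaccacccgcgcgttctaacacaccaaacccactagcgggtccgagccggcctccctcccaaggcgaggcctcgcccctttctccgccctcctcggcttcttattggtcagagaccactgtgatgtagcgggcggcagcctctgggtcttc
Dusp1: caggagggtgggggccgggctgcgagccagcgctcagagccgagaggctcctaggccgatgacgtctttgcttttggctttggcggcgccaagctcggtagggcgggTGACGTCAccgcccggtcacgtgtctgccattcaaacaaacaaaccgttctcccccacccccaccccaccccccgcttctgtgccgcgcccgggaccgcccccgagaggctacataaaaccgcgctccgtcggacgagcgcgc
Dusp5: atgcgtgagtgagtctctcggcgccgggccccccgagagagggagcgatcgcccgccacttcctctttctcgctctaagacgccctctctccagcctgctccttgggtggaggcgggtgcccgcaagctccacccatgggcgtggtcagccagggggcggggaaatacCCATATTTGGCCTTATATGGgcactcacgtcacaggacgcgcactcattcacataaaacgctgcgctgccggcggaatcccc
Dusp2: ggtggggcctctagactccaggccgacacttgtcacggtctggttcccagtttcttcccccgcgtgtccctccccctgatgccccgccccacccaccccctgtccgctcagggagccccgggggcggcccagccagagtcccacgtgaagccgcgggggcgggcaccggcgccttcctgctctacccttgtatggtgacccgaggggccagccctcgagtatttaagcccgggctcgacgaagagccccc
Spry1: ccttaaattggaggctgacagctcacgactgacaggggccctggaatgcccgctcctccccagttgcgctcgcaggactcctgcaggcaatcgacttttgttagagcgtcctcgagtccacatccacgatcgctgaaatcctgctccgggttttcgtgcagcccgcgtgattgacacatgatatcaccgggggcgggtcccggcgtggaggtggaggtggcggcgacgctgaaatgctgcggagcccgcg

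Dusp10 fell in Cul5 cKO cells, and it was the only one of the 9 tested genes that passed the threshold, an adjusted p under 0.05 in edgeR's quasi-likelihood test over all genes. Over the whole table, 1.03% of 12925 tested genes passed, and 0.418% passed in the downward direction. Without adjustment 4 of the 9 had a p under 0.05, Dusp1 and Dusp10 lower and Dusp6 and Dusp14 higher, a mark that 21.3% of all tested genes met. The groups did not overlap in 3 genes, Dusp1, Dusp10 and Dusp14, where 27.5% of all tested genes did not overlap. The median log2 fold change of the 9 was -0.01, the same as that of all tested genes, and their median absolute log2 fold change was 0.15 against 0.17. By sign alone 4 were higher and 5 lower, with Spred2, at -0.01, turning to the positive side when counts were scaled from TPM. The plots of levels and of fold changes show each gene. Nothing says that the 3 samples of a genotype came from separate mice, so p-values measure the spread between these samples.

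**Figure D1:**
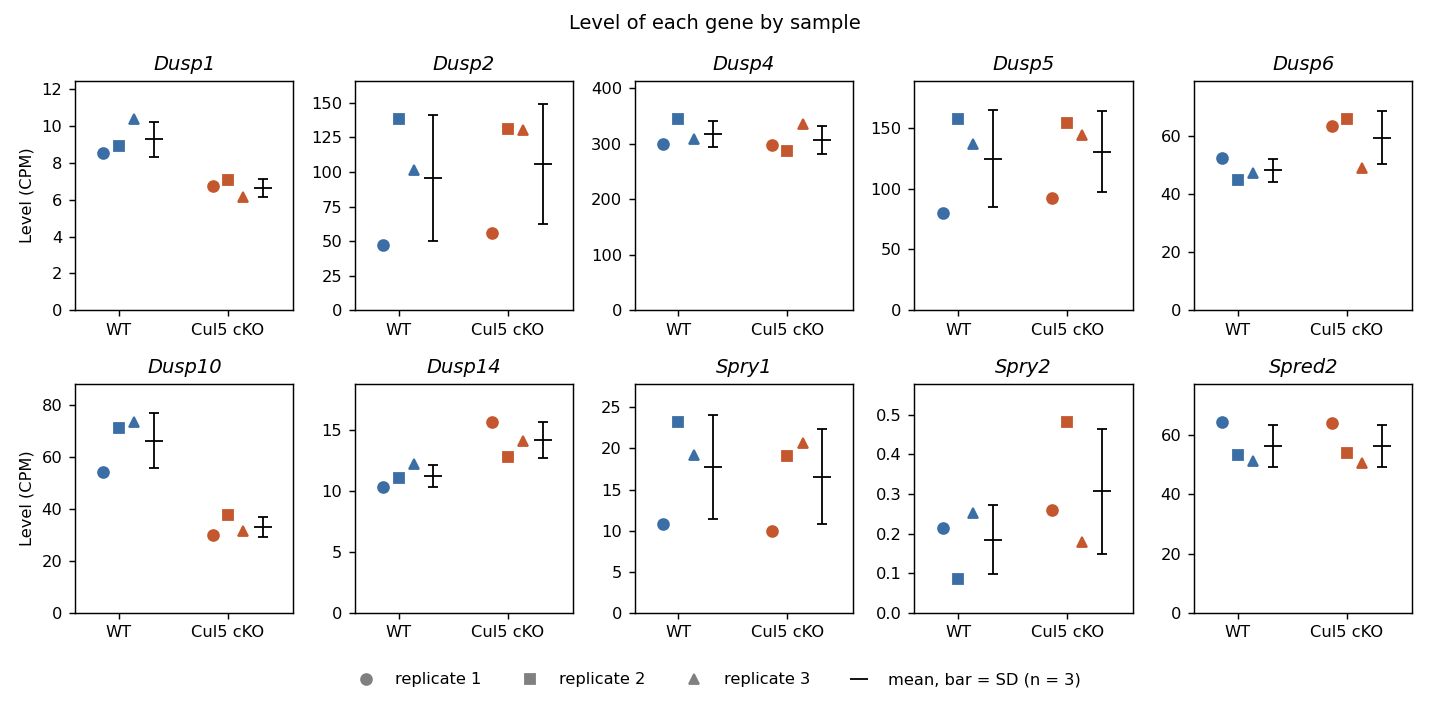
Level of each of the 10 genes in CPM, on an axis from 0, in WT (blue) and Cul5 cKO (orange) samples, with the replicate number given by the shape of the point and the mean and SD (n = 3) beside the points. The genotypes are separated in Dusp1, Dusp10 and Dusp14, and replicate 1 of both genotypes lies low in Dusp2, Dusp5 and Spry1.

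**Figure D2:**
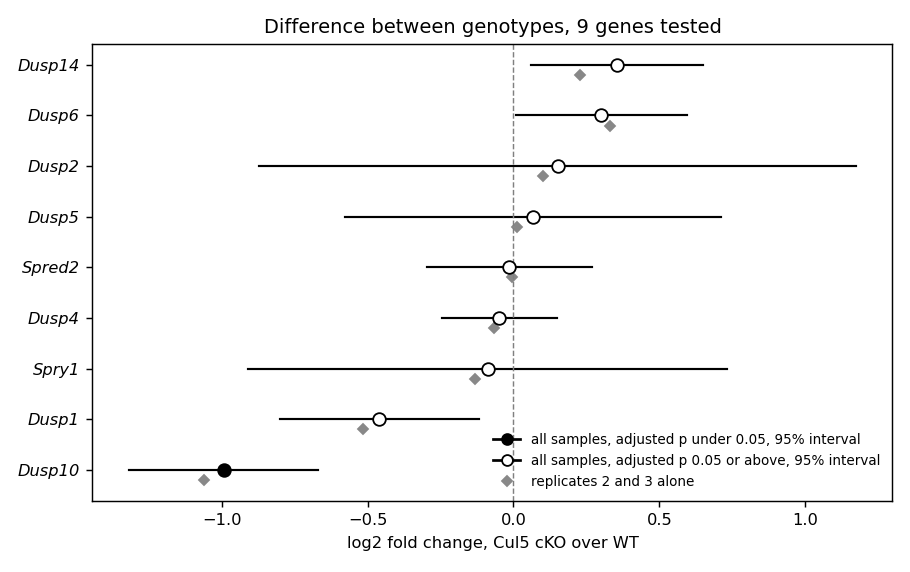
Log2 fold change of Cul5 cKO over WT for the 9 tested genes, with 95% intervals from edgeR over all samples, the one gene past an adjusted p of 0.05 filled, and the estimate from replicates 2 and 3 alone as a grey diamond. Dusp10 at -0.99 lies furthest from 0, and the intervals of Dusp2, Dusp5 and Spry1 are the widest.

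Dusp10 (MKP-5) is a phosphatase of both nucleus and cytoplasm with a preference for JNK and p38 over ERK, so that of the 10 genes it is among the least tied to ERK itself. The gene, ENSMUSG00000039384, lies on chr1:184013302-184075636 of GRCm38, plus strand, in the GENCODE annotation that also gives the positions of the other genes. Its levels were 54.2, 71.1 and 73.6 CPM in WT replicates 1, 2 and 3 and 30.1, 37.6 and 31.5 CPM in Cul5 cKO replicates 1, 2 and 3. Every Cul5 cKO sample was below every WT sample, and the lowest WT sample, replicate 1, was still above the highest Cul5 cKO sample. The means were 66.3 ± 10.6 and 33.1 ± 3.98 CPM (SD, n = 3). The fitted level was 1.99-fold higher in WT, or -0.99 as the log2 fold change of Cul5 cKO over WT (SE 0.139, 95% interval -1.32 to -0.67), with an adjusted p of 0.0255 in edgeR. An exact two-sided permutation test over the 6 samples gave p = 0.1, the smallest that 3 against 3 can give. Set sample against sample by replicate number, here and below only a description because the numbers were not taken as pairs, the log2 difference was -0.85, -0.92 and -1.23. Of the 54 genes called lower, 25, with Dusp10 among them, had a log2 fold change at least as low. The counts behind these levels were 1270, 1644 and 291 in WT and 694, 858 and 708 in Cul5 cKO, so that the shallow library still held 291 counts of the gene.

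Nearly all Dusp10 counts were assigned to 1 transcript, Dusp10-201, with 99.6% in WT and 98.9% in Cul5 cKO. The gene 1700056E22Rik overlaps Dusp10 on the opposite strand, and its 194 counts over all samples came to 3.55% of those of Dusp10. Whether the counting used strand is not stated. The authors' own gene-level table, in log2 CPM, held Dusp10 at 5.83, 6.25 and 6.30 in WT and at 5.01, 5.35 and 5.14 in Cul5 cKO, again without overlap. With replicate 1 against replicates 2 and 3 as a term in edgeR the log2 fold change was -0.99 with an adjusted p of 0.00143, and with replicates 2 and 3 alone it was -1.06 with an adjusted p of 0.0101. The direction was kept in all 19 alternative settings, with log2 fold changes from -1.12 to -0.82, but the adjusted p ranged from 6.79e-08 to 0.153 and passed in 10 of them. The call was lost when any single library other than WT replicate 1 was left out. The adjusted p rose to 0.12 without WT replicate 2 and to 0.126 without WT replicate 3, the shallow library. Leaving out Cul5 cKO replicate 1 or 2 gave 0.0565 each. Leaving out Cul5 cKO replicate 3 gave 0.153, at a log2 fold change of -0.96. The unadjusted p of Dusp10 was under 0.05 in all 19 alternative settings. Calls over all genes numbered 133 in the main setting. They fell to 2 without WT replicate 2, 2 without WT replicate 3 and 3 without Cul5 cKO replicate 3. The loss in those fits is therefore not read as a result about Dusp10 alone. The number of calls fell less without Cul5 cKO replicate 1 or 2.

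Dusp1, Dusp2, Dusp4 and Dusp5 are the nuclear inducible phosphatases, made within a short time of stimulation. None of the 4 passed the test. Dusp1 (MKP-1, chr17:26505590-26562128, minus strand), which acts on JNK, p38 and ERK, was at 8.54, 8.91 and 10.4 CPM in WT and 6.73, 7.10 and 6.14 CPM in Cul5 cKO. Each Cul5 cKO sample was lower than each WT sample. The means were 9.28 ± 0.970 and 6.66 ± 0.486 CPM (SD, n = 3), with a log2 fold change of -0.46 (SE 0.146, 95% interval -0.80 to -0.12) and an adjusted p of 0.146 in edgeR. The difference by replicate number was -0.34, -0.33 and -0.76, and the unadjusted p was under 0.05 in 17 of 19 alternative settings, the adjusted p in none. With 902 counts over the 6 samples, 41 of them in WT replicate 3, Dusp1 was among the thinly covered genes. Its annotated span is long because of 1 transcript, Dusp1-206, which overlaps Ergic1 on the opposite strand. Ergic1 had 19990 counts over all samples, 2217% of those of Dusp1. Reads were assigned to transcript sequences, so only bases shared by transcripts of both genes could mix their reads. No shared stretch of at least 150 bases at 95% identity was found between the 2 genes on either strand, and shorter ones were not kept. Dusp1-206 held 16.45 estimated counts in Cul5 cKO replicate 3 and close to none in the other 5 samples, and the main transcript Dusp1-202 took 86.7% of Dusp1 counts in WT and 78.9% in Cul5 cKO.

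Dusp2 (PAC-1, chr2:127336159-127338376, plus strand), named as a phosphatase of activated cells and expressed in stimulated lymphocytes, was at 47.3, 138.2 and 101.2 CPM in WT and 55.8, 130.8 and 130.7 CPM in Cul5 cKO. Replicate 1 was the lowest sample of both genotypes and the groups overlapped. The log2 fold change was 0.15 (SE 0.437), with a 95% interval of -0.87 to 1.17 and an adjusted p of 0.879 in edgeR, so that at this spread neither a fall nor a rise of close to 1 on the log2 scale could be told from 0.

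Dusp5 (chr19:53529109-53542431, plus strand), which dephosphorylates ERK and holds it in the nucleus, was at 80.1, 157.1 and 136.9 CPM in WT and 92.3, 154.3 and 144.1 CPM in Cul5 cKO. The groups again overlapped and replicate 1 was again lowest in both. The log2 fold change was 0.07 (SE 0.276, 95% interval -0.58 to 0.71, adjusted p = 0.918 in edgeR).

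Dusp4 (MKP-2, chr8:34807297-34819894, plus strand) gave the most counts of the 10 genes, at 299.5, 343.7 and 307.2 CPM in WT and 297.2, 287.2 and 334.9 CPM in Cul5 cKO. It had the narrowest interval of the 9, with the groups overlapping. The log2 fold change was -0.05 (SE 0.0839, 95% interval -0.25 to 0.15, adjusted p = 0.775 in edgeR).

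Dusp6 and Dusp14 were both somewhat higher in Cul5 cKO and neither passed the test. Dusp6 (MKP-3, chr10:99263231-99267489, plus strand), the cytoplasmic phosphatase specific for ERK and a common readout of ERK activity, was at 52.5, 44.8 and 47.3 CPM in WT and 63.5, 65.9 and 49.1 CPM in Cul5 cKO. Cul5 cKO replicates 1 and 2 were above all WT samples, and replicate 3 lay within the WT range. The means were 48.2 ± 3.95 and 59.5 ± 9.09 CPM (SD, n = 3) and the log2 fold change was 0.30 (SE 0.125, 95% interval 0.01 to 0.59, adjusted p = 0.225 in edgeR). By replicate number the difference was 0.27, 0.56 and 0.05. Among 9648 tested genes with a mean of at least 5 CPM, those whose log2 CPM followed Dusp6 most closely over the 6 samples were Emilin1, Cited2 and Gclm, with root mean square differences of 0.0704, 0.0725 and 0.0760 after centring, against an SD of 0.230 for Dusp6 itself.

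Dusp14 (MKP-6, chr11:84048041-84069261, minus strand), a small atypical phosphatase that restrains T cell receptor signalling, was at 10.3, 11.1 and 12.1 CPM in WT and 15.6, 12.8 and 14.1 CPM in Cul5 cKO. All Cul5 cKO samples were above all WT samples, by a narrow gap. The means were 11.2 ± 0.912 and 14.1 ± 1.44 CPM (SD, n = 3), with a log2 fold change of 0.35 (SE 0.126, 95% interval 0.06 to 0.65) and an adjusted p of 0.174 in edgeR. Both Dusp6 and Dusp14 had an unadjusted p under 0.05 in 10 of 19 alternative settings.

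Of the Sprouty and Spred genes, Spry1 (chr3:37639947-37644598, plus strand) was at 10.8, 23.2 and 19.2 CPM in WT and 9.95, 19.0 and 20.7 CPM in Cul5 cKO. Replicate 1 was lowest in both genotypes and the groups overlapped. The log2 fold change was -0.09 (SE 0.351, 95% interval -0.91 to 0.73, adjusted p = 0.915 in edgeR).

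Spry1 and Spry2 encode Sprouty proteins, adaptors that dampen signals from receptors to RAS. Spred2 (chr11:19924375-20024026, plus strand), which restrains the activation of RAF, was at 64.5, 53.4 and 51.4 CPM in WT and 64.2, 53.9 and 50.7 CPM in Cul5 cKO. The levels were close in the 2 genotypes, with replicate 1 the highest in both. The log2 fold change was -0.01 (SE 0.121, 95% interval -0.30 to 0.27, adjusted p = 0.966 in edgeR), and the difference by replicate number was -0.01, 0.01 and -0.02.

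Spry2 (chr14:105891947-105896819, minus strand) was close to silent, with 5, 2 and 1 counts in WT and 6, 11 and 4 counts in Cul5 cKO, or 0.214, 0.0865 and 0.253 CPM and 0.261, 0.482 and 0.178 CPM. It did not pass the filter on low counts, and no difference between genotypes was detectable at this depth. The floor of 3 counts covers counting error only.

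In Dusp2, Dusp5, Spry1 and Spred2 replicate 1 lay further from replicates 2 and 3 than the genotypes lay from each other. Taking log2 CPM in replicate 1 minus the mean of replicates 2 and 3, Dusp2 was at -1.32 in WT and -1.23 in Cul5 cKO. Spry1 was at -0.97 and -0.99. Dusp5 was at -0.87 and -0.69. These 3 genes stood at under 0.7 of the level of the other replicates in both genotypes, as 4.12% of all tested genes did. Dusp10 was also lower in replicate 1, by less, at -0.42 in WT and -0.19 in Cul5 cKO. Spred2 went the other way, at 0.30 in both genotypes. Replicate 1 was the lowest sample of both genotypes in 4 of the 9 genes, against 22.0% of all tested genes, and the highest in 1, against 23.4%. Among the 9 genes, Dusp5 and Spry1 followed each other most closely over the 6 samples, with a root mean square difference of 0.155 in centred log2 CPM, and Dusp2 was nearest to Spry1 at 0.208. Dusp10 was nearest to Dusp1 at 0.288. The measure is not scaled to a gene's own spread. The SD of log2 CPM over the 6 samples was 0.577 for Dusp10, 0.415 for Dusp5 and 0.518 for Spry1. The labels name no batch, culture day or pool for replicate 1, and the paper describes this RNA sequencing as a single experiment. What sets replicate 1 apart was not tested.

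**Figure D3:**
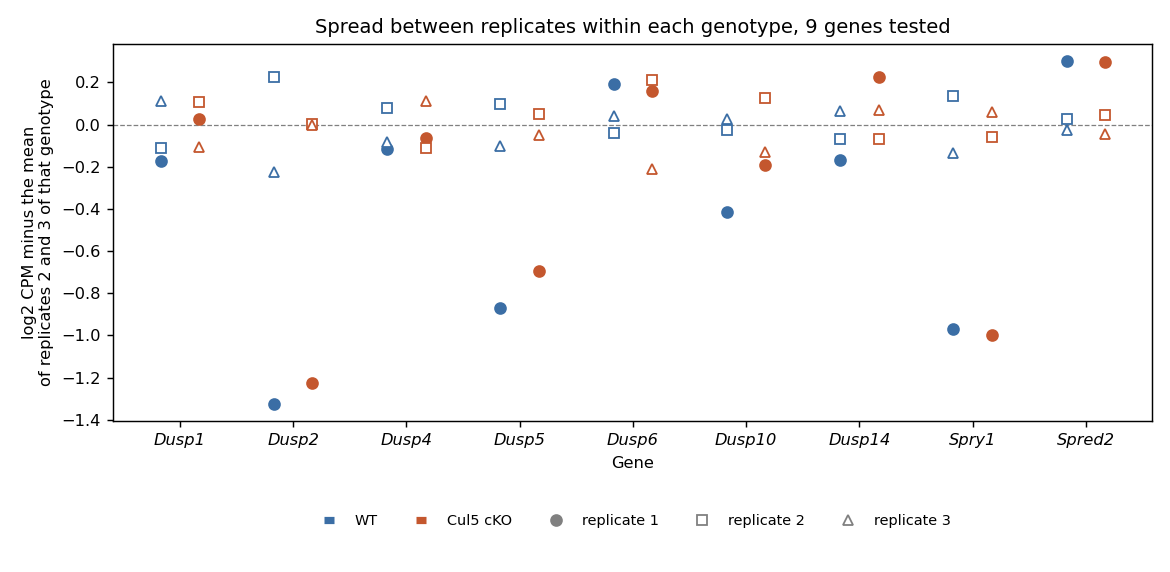
For each of the 9 tested genes, log2 CPM in each sample minus the mean of replicates 2 and 3 of the same genotype, for WT (blue) and Cul5 cKO (orange), with replicate 1 filled. Replicate 1 lies at -0.69 or lower in both genotypes for Dusp2, Dusp5 and Spry1 and at 0.30 in both for Spred2.

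With replicate 1 as a term, which removes this shared shift, 13.1% of all tested genes passed an adjusted p of 0.05 in edgeR, and Dusp10 was still the only one of the 9 to do so. The adjusted p was 0.382 for Dusp2 at a log2 fold change of 0.14, 0.524 for Dusp5 at 0.08 and 0.427 for Spry1 at -0.13. The genes whose intervals were widest were thus near 0 in this fit as well. Dusp1, Dusp6 and Dusp14 had adjusted p of 0.0685, 0.0960 and 0.0862 and log2 fold changes of -0.45, 0.31 and 0.36. Their unadjusted p in edgeR went from 0.0151 to 0.0117, from 0.0447 to 0.0209 and from 0.0244 to 0.0172. The adjustment is milder in a fit that calls more genes, here 1688 against 133, so the lower adjusted p is not read as stronger evidence for these 3 genes.

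Levels of different genes can be compared only per transcript length, for which TPM, kallisto's length-scaled share of a transcript in the library, summed over the transcripts of a gene were used. In WT, Dusp4 led with 170 ± 19.7 TPM (SD, n = 3), or 36.7% of the summed TPM of the 10 genes, and its range did not overlap that of any other gene. Dusp2 with 99.5 ± 49.5 TPM and Dusp5 with 75.1 ± 25.5 TPM followed, and their ranges overlapped. Dusp10 with 36.0 ± 6.49 TPM and Dusp6 with 29.7 ± 1.54 TPM came next and overlapped as well. Below them lay Spred2 with 20.2 ± 3.40 TPM, Dusp14 with 14.1 ± 1.48 TPM, Spry1 with 10.6 ± 4.08 TPM and Dusp1 with 8.03 ± 1.23 TPM, where the range of Spry1 overlapped those of Dusp14 and Dusp1, which did not overlap each other. Spry2 was last with 0.132 ± 0.0584 TPM. Most of the transcript of this group was therefore that of the nuclear inducible phosphatases. In Cul5 cKO the order of the means was the same but for Dusp10, which at 18.1 ± 2.17 TPM lay below Dusp6 at 35.3 ± 5.65 TPM without overlap. Its range there overlapped those of Spred2 at 20.7 ± 2.53 TPM and Dusp14 at 17.5 ± 1.76 TPM, so that its place among these 3 was not settled. Its share of the summed TPM was 7.76% in WT and 3.94% in Cul5 cKO. The summed TPM of the 10 genes was 366.1, 565.8 and 459.0 in WT and 385.6, 496.8 and 492.7 in Cul5 cKO, which overlapped, with replicate 1 lowest in both.

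Outside the 10 genes, the lists of the surrounding pathway showed few calls. Over all tested genes 1.03% were called in edgeR and 21.3% had an unadjusted p under 0.05. DESeq2 called 753 of 22400 genes, and limma's voom with sample quality weights 1259 of 12925. The list counts below stand beside these shares and are not read as results about the lists. Of 22 other DUSP, Sprouty and Spred genes 13 were tested, and none was called in edgeR, with 2 higher and none lower at an unadjusted p under 0.05 and a median log2 fold change of 0.16. Those 2 were Dusp3 with 0.82 (adjusted p = 0.184) and Spred1 with 0.63 (adjusted p = 0.231). DESeq2 and limma's voom with sample quality weights called none of the 13 either. With replicate 1 as a term Spred1, a relative of Spred2, passed (0.58, adjusted p = 0.0170).

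All 20 genes from RAS to ERK were tested. Hras, a RAS gene, rose from 40.0, 36.6 and 36.9 CPM in WT to 52.9, 49.4 and 56.1 CPM in Cul5 cKO, without overlap (log2 fold change 0.48, SE 0.0776, adjusted p = 0.0432 in edgeR). The call on Hras was lost in 11 of 19 alternative settings, among them library size alone (adjusted p = 0.0519), thinned libraries (0.0689), counts scaled from TPM (0.0868) and each sample left out other than WT replicate 1 (0.0734 to 0.186). No other gene of the list passed in edgeR over all samples, 3 were higher and 2 lower at an unadjusted p under 0.05, and the median log2 fold change was 0.02. Rasgrp1, the exchange factor that activates RAS below the T cell receptor, was at -0.59 (adjusted p = 0.0674) and the scaffold Ksr1 at -0.44 (adjusted p = 0.120). DESeq2 called 1 gene higher and 1 lower, Rasgrp1 (adjusted p = 0.000133), and voom with sample quality weights called 1 higher and 2 lower, Rasgrp1 (0.0159) and Ksr1 (0.0266). With replicate 1 as a term Hras and Lat, an adaptor of the T cell receptor, were among the genes called higher, and 2 were called lower, Rasgrp1 and Ksr1.

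Of the 14 genes for RAS GTPase-activating proteins and other brakes 13 were tested and none was called, with 3 higher and 1 lower at an unadjusted p under 0.05 and a median of 0.09. The smallest p belonged to Rasa1, at a log2 fold change of -0.27 (adjusted p = 0.124), and to Ppp2ca, the catalytic subunit of protein phosphatase 2A, at 0.18 (adjusted p = 0.177). DESeq2 called none of these and voom with sample quality weights called 2, both higher, where voom called 1259 of all 12925 tested genes. With replicate 1 as a term Rasa1 was called lower and Pebp1, an inhibitor of RAF, higher. Of the 20 transcription factors and targets that respond to ERK all were tested and none was called in edgeR over all samples, with 3 higher and 1 lower at an unadjusted p under 0.05. DESeq2 and voom each called 3 of them higher and none lower. Their median log2 fold change was 0.23 against -0.01 for all tested genes. Etv5, an ETS factor induced with Dusp6 in many tissues, was at 0.84 (adjusted p = 0.0736), but at 0.58 with counts scaled from TPM, 0.51 in the authors' table, 0.47 on log2(TPM + 0.1) and 0.33 on log2(TPM + 1). Ier3 was at 1.25 (adjusted p = 0.0749) and Fosl2, a partner in AP-1, at 1.05 (adjusted p = 0.123).

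This list depended most on how replicate 1 was treated. With it as a term 8 of the 20 were called higher, namely Egr2, Fosl1, Fosl2, Junb, Ier3, Ier5, Myc and Etv5, and Elk4 was called lower, while 13.1% of all tested genes were called in that fit. Of the 17 genes of the JNK and p38 cascades, which include the kinases on which Dusp10 acts, 15 were tested and 2 were called, both higher. Map2k3, which phosphorylates p38, rose from 131.1, 145.3 and 130.8 CPM to 185.7, 209.4 and 204.3 CPM (log2 fold change 0.56, SE 0.0758, adjusted p = 0.0245 in edgeR). Mapkapk2, a kinase that p38 activates, rose from 337, 350 and 330 CPM to 424, 449 and 470 CPM (0.40, SE 0.0614, adjusted p = 0.0364). In both genes every Cul5 cKO sample was above every WT sample, and each call was lost in 8 of 19 alternative settings, including counts scaled from TPM (adjusted p = 0.0574 and 0.0899) and the omission of replicate 2 or 3 of either genotype (0.0789 to 0.141 for Map2k3 and 0.12 to 0.182 for Mapkapk2). Map2k6, the other main kinase of p38, was at -0.72 (adjusted p = 0.152) and was called lower with replicate 1 as a term. The tested genes for JNK and p38 themselves, on which Dusp10 acts, were not called. For JNK, Mapk8 was at 0.05 and Mapk9 at -0.01. For p38, Mapk11 was at 0.15, Mapk12 at -0.24 and Mapk14 at -0.08 (adjusted p from 0.614 to 0.963 in edgeR for these genes of JNK and p38).

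**Figure D4:**
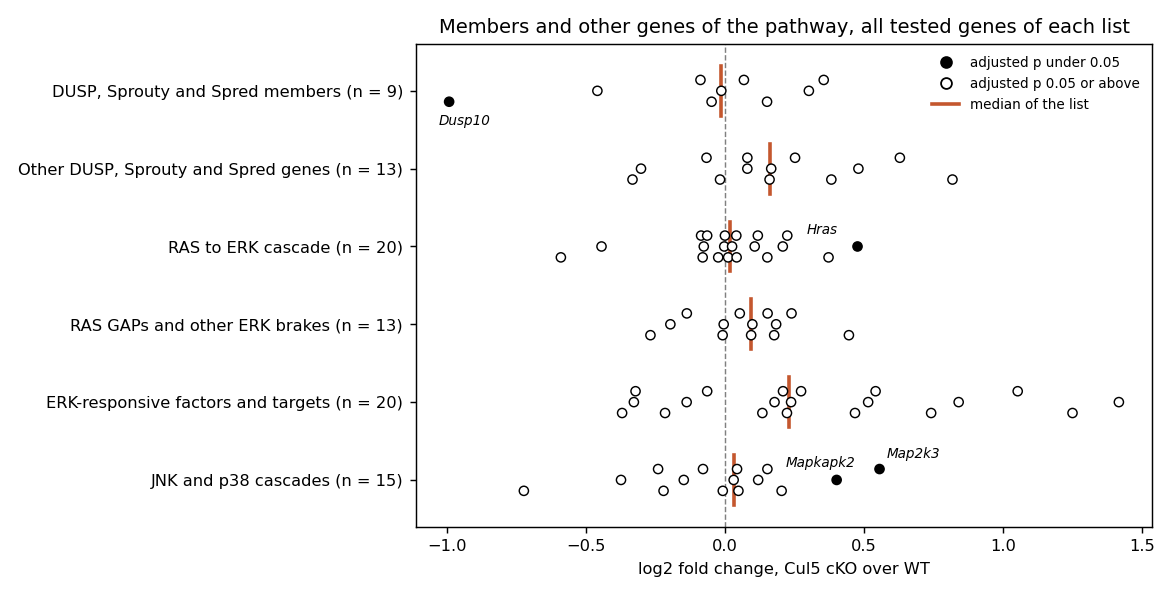
Log2 fold change of Cul5 cKO over WT for every tested gene of the 9 feedback genes and of the 5 surrounding lists, with genes past an adjusted p of 0.05 filled and named and the median of each list as an orange bar. Dusp10 at -0.99 is the only filled gene below 0, and Hras, Mapkapk2 and Map2k3 are filled above it.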

How the data were processed

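Poly-A RNA of 3 WT and 3 Cul5 cKO Th9 cultures was read from 1 end over 50 bp. Reads were assigned by the authors to GRCm38 transcripts with kallisto 0.46.2, and they deposited estimated counts, TPM and effective lengths per transcript and sample (119414 transcripts). Their table of genes, normalized with edgeR 3.34.0, is in log2 CPM as deposited. The fold changes and p-values in that table, which are the authors' own comparison, were not used. Estimated counts were added up per gene with GENCODE vM21 (97.7% of transcripts matched), rounded and tested in edgeR 4.0.16 with TMM, its default filter (12925 genes kept) and the quasi-likelihood test, adjusted by Benjamini-Hochberg over all genes and called at 0.05. The transcripts left out held 0.958% to 1.04% of counts. Alternatives used DESeq2 1.42.0 and limma 3.58.1, log2(TPM + 1) and log2(TPM + 0.1), counts scaled from TPM, other filters and normalization, thinning, replicate terms and each sample left out. Scripts were tested on simulated data. Copies were sought with blastn 2.17.0: AC137853.2, Gm14612 and Gm42922 share at least 95% over 150 bases with Dusp5, Spred2 and Spry1 and had 0 counts.

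The 10 genes, the lists and the tests were chosen with earlier results of these data known. Named from the lists were genes called in the fit over all samples or with replicate 1 as a term and the 2 with the smallest p in each list. The tested genes for JNK and p38 themselves and the 3 genes nearest to Dusp6 were named as well. Some genes of the lists are not reported here.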

Additional observations from a re-analysis of the deposited data

How the results depend on the processing

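Among the 9 genes, Dusp10 kept its direction in every alternative, and no other gene was called in any of them. The number of these genes called was 0 with libraries thinned to the shallowest, with limma on log2(TPM + 1), on log2(TPM + 0.1) and on the authors' gene-level table (main 1), where the adjusted p of Dusp10 was 0.0631, 0.0908, 0.0837 and 0.0707, and 0 to 1 with a sample left out. At an unadjusted p under 0.05 the count was 2 (main 4) in those 4 settings and with replicates 2 and 3 alone, and 2 to 3 with a sample left out. Genes without overlap numbered 3 to 5 with a sample left out (main 3), where a smaller group separates more readily. The shares of all tested genes for these counts were not computed, so the changes are not read as a result about these genes. Calls in the 5 pathway lists (main 3) numbered 7 with DESeq2, 1 with counts scaled from TPM, 0 with limma on either TPM scale and on the authors' table, 10 with voom quality weights, 5 without a filter, 20 with replicate 1 as a term, 14 with replicates 2 and 3 alone and 0 to 5 with a sample left out. Spred2, main -0.01, reversed to 0.065 with counts scaled from TPM, 0.022 thinned, 0.041 and 0.043 on log2(TPM + 1) and log2(TPM + 0.1), 0.063 in the authors' table, 0.0032 with voom and 0.0059 without a filter. With a sample left out, values ranged from -0.12 to 0.10 for Spred2, -0.19 to 0.56 for Dusp2, -0.11 to 0.017 for Dusp4, -0.18 to 0.29 for Dusp5 and -0.38 to 0.22 for Spry1. The cause was not tested. Over all genes, calls numbered 133 in the main setting, 753 with DESeq2, 228 without a filter, 61 with counts scaled from TPM, 42 on the authors' table, 27 and 30 on the TPM scales, 1688 with replicate 1 as a term, 1153 with replicates 2 and 3 alone, 1259 with voom and 2 to 316 with a sample left out.

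With the replicate number as a block, 848 genes in all, 1 of the 9 genes and 14 list genes were called. Deviations of same-numbered samples correlated at 0.316, 0.184 and 0.0235 over 12925 genes, so the numbers were not taken as pairs, and WT replicate 3 correlated best with Cul5 cKO replicate 2 (0.0567). Spry2 gave a log2 fold change of 0.89 without a filter and 0.88 in DESeq2, whose adjusted p is NA. The 3944803 counts of WT replicate 3 limit Dusp1, Dusp14 and Spry1, with 41, 48 and 76 counts there. They limit Dusp3, Fosl1, Etv5 and Ier3 of the lists more, with 4, 11, 17 and 18 counts there.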

Other observations

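Transcript shares within the feedback genes rest on kallisto's division of 50-base reads between transcripts and were not tested. Dusp14 counts fell on Dusp14-202 (63.1% in WT, 59.2% in Cul5 cKO) and, for the greater part of the rest, on Dusp14-203 (27.1%, 27.2%). Spry1 counts fell on Spry1-201 (56.9%, 68.7%), Spry1-203 (32.9%, 20.0%) and Spry1-202 (10.2%, 11.3%). Spry1-203 varied within genotypes, with 42.7, 203 and 39.0 estimated counts in WT and 34.6, 29.8 and 161.2 in Cul5 cKO. Spred2 counts fell mostly on Spred2-202 (81.3%, 77.0%) and Spred2-201 (18.4%, 22.8%), while Dusp4 and Dusp5 each have 1 annotated transcript.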
